A study of Mus musculus with 4 samples.

Results

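Bcl11b and the gene desert downstream of it were described in ATAC-seq peak lists of mouse T lineage cells. In ATAC-seq a transposase inserts adapters where chromatin is accessible, and a peak is a stretch where the cut fragments pile up. All peaks were taken that lay on chromosome 12 (mm10) within the annotated Bcl11b gene, from 107910403 to 108004145, within 1000 kb on its lower-coordinate side or within 50 kb on its higher-coordinate side. Bcl11b is transcribed towards lower coordinates, so the lower side is downstream. The window held 98 peaks of the Scd1-deficient DN3 list, 96 of the control DN3 list, 83 of the Scd1-deficient naive CD4 list and 72 of the control naive CD4 list. Peaks of the lists that overlapped or touched were joined into 136 regions, of 90268 in all on chromosomes 1 to 19 and X. Of these, 104 lay in the downstream desert, 28 touched the gene and 4 lay on its upstream side.

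The libraries came from untreated cells taken directly from mice, 1 library for each genotype and cell type. DN3 thymocytes are immature T cell precursors that carry CD25 but no CD4, CD8 or CD44, and were flow sorted by these markers from thymus after bead depletion of other lineages. Naive CD4 T cells, mature cells that have not met antigen, were isolated from spleen with magnetic beads. Both cell types came from Scd1-deficient mice, which lack an enzyme of fatty acid desaturation, and from littermate control mice. The controls carry the letters HZ in their titles, which no label spells out, while their deposited files are marked WT. Their Scd1 alleles are therefore not known. The labels give neither the age of the mice, nor the kind of Scd1 deletion, nor the number of animals per library.

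Bcl11b is a zinc finger transcription factor that is switched on as thymocyte progenitors commit to the T lineage and stays on in T cells. In mice it holds down genes of natural killer and other innate lymphoid programmes and of uncommitted progenitors. The gene is followed by a long stretch with few genes in which a T cell enhancer and a non-coding RNA, both far downstream of the gene, take part in its activation in thymocytes. The lists name no enhancer, and no region below was assigned to a published element.

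Each group had 1 library, so there was no spread between replicates. Nothing below was tested, and p-values are left out. The fold of a peak is the pileup at its summit over the local background of the same library, and its −log10 q is the strength of that excess. Both are the authors' values and belong to their own list. A −log10 q grows with the depth of its library, so values of different lists stand side by side here as descriptions and not as a measured change. A region with no peak in a list was not called there, which does not show that the DNA was closed.

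The lists held 76437 (Scd1-deficient DN3), 76814 (control DN3), 51297 (Scd1-deficient naive CD4) and 46576 (control naive CD4) peaks on the compared chromosomes. Read depth was not given. The lowest local background recovered from the peak statistics was 4.474, 4.721, 3.653 and 5.116 fragments in the same order. The labelled cell types were checked by whether a marker gene had a region no more than 1 kb from either annotated end. Of all protein-coding genes 66.5% and 66.7% had one in Scd1-deficient and control DN3 cells, and 58.6% and 57% in Scd1-deficient and control naive cells. All 8 DN3 markers had one in both DN3 lists, against 6 in the Scd1-deficient and 5 in the control naive list, where Ptcra and Rag2 had none in either. All 7 naive CD4 markers had one in all 4 lists, so by their gene ends alone these genes did not separate the cell types. Of 5 B cell markers 2 had one in each list, of 4 myeloid markers 2, and of 3 erythroid markers 3. Of 3 markers of CD8 and double-positive cells all had one in both DN3 lists and 2 had one in each naive list, with Cd8a lacking it in both. The summed number of regions around these 3 was 23 in each DN3 list, against 13 in each naive list. The summed number of regions around the B cell markers was 34 and 36 in Scd1-deficient and control DN3 cells, and 16 and 11 in Scd1-deficient and control naive cells, and Ms4a1 (CD20) had none in any list. Around the naive CD4 markers the summed number was 46 and 42 in Scd1-deficient and control DN3 cells, and 60 and 62 in Scd1-deficient and control naive cells. Around the DN3 markers it was 60 and 61 in Scd1-deficient and control DN3 cells, and 41 and 38 in Scd1-deficient and control naive cells. Whether other cells had a part in the results below was not tested.

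The promoter is shown first because the region at the start of the gene is common to all 4 lists. The sequence is the RefSeq promoter window of Bcl11b (GRCm38.p6, the assembly of mm10, chr12:108003365-108003664, minus strand, 250 bases before and 50 after the start site, written 5′ to 3′). Capitals mark the bases inside the region of the control DN3 list.
Bcl11b promoter: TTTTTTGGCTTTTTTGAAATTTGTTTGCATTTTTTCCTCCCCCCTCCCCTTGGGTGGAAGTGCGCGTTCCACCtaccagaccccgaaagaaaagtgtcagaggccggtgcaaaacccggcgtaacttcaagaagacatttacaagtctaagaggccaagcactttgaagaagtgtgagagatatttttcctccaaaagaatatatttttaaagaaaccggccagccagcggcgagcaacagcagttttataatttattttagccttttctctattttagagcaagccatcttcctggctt

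The window lies inside the annotated gene, whose outermost end at 108004145 is farther upstream. The open region lay mostly upstream of the window, over that outermost end. It overlapped the 300 bases by 73 in control DN3 cells and by 147 in control naive cells. In Scd1-deficient DN3 cells its edge was at 108003684 and in Scd1-deficient naive cells at 108003690, both just outside the window. The summit was at 108004194 in Scd1-deficient DN3 cells, 110 bp from that of control DN3 cells at 108004084. In Scd1-deficient and control naive cells it was at 108004083 and 108004084. The DNA under the printed start site at 108003414 was thus in no region of any list, and the summit stood 49 to 62 bp from the outermost end.

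The printed window had a G and C content of 43.0%, against a median of 52.7% over 32851 RefSeq promoter windows of the same length. It held 9 CG pairs, against a median of 7.0, and 45.8% of all windows held at least as many. Of 7 motifs looked for on both strands, CTTTGA, the core bound by the T cell factor Tcf7 and its relative Lef1, occurred at position 162, counted from the 5′ end. It lay outside the capitals and stands in 16% of all windows. GGAAGT, a core of ETS family sites, occurred at position 56, inside the capitals, and stands in 23.8%. The other 5 had no match in these 300 bases. They were the GATA core GATAA (in 25.4% of all windows), the RUNX core TGTGGT (16.8%), CTTTGT as another core of the Tcf7 family (18.7%), the Notch partner RBPJ core TGGGAA (25.6%) and the E-box CANNTG (72.3%).

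The start region was called in all lists. Its −log10 q was 139 in Scd1-deficient and 157 in control DN3 cells, and 184 in both Scd1-deficient and control naive cells. The fold was 5.77 and 6.12 in Scd1-deficient and control DN3 cells and 7.18 and 5.89 in Scd1-deficient and control naive cells. After division by the median ratio of all regions called in the 4 lists, the DN3 mean over the naive mean was 0.937. A neighbouring upstream region, 3.0 kb before the start site (108005225 to 108006705), had the higher values in DN3 cells. Its −log10 q was 107 and 96.92 in Scd1-deficient and control DN3 cells, against 34.1 and 33.6 in Scd1-deficient and control naive cells, with a DN3 over naive ratio of the fold of 1.7. The other 3 upstream regions were weaker. The one 19.9 kb before the start site was called in naive cells alone (13.1 and 10.5 in Scd1-deficient and control cells), the one at 45.6 kb in DN3 cells alone (4.71 and 6.31), and the one at 38.4 kb in all lists but the control naive one.

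**Figure D1:**
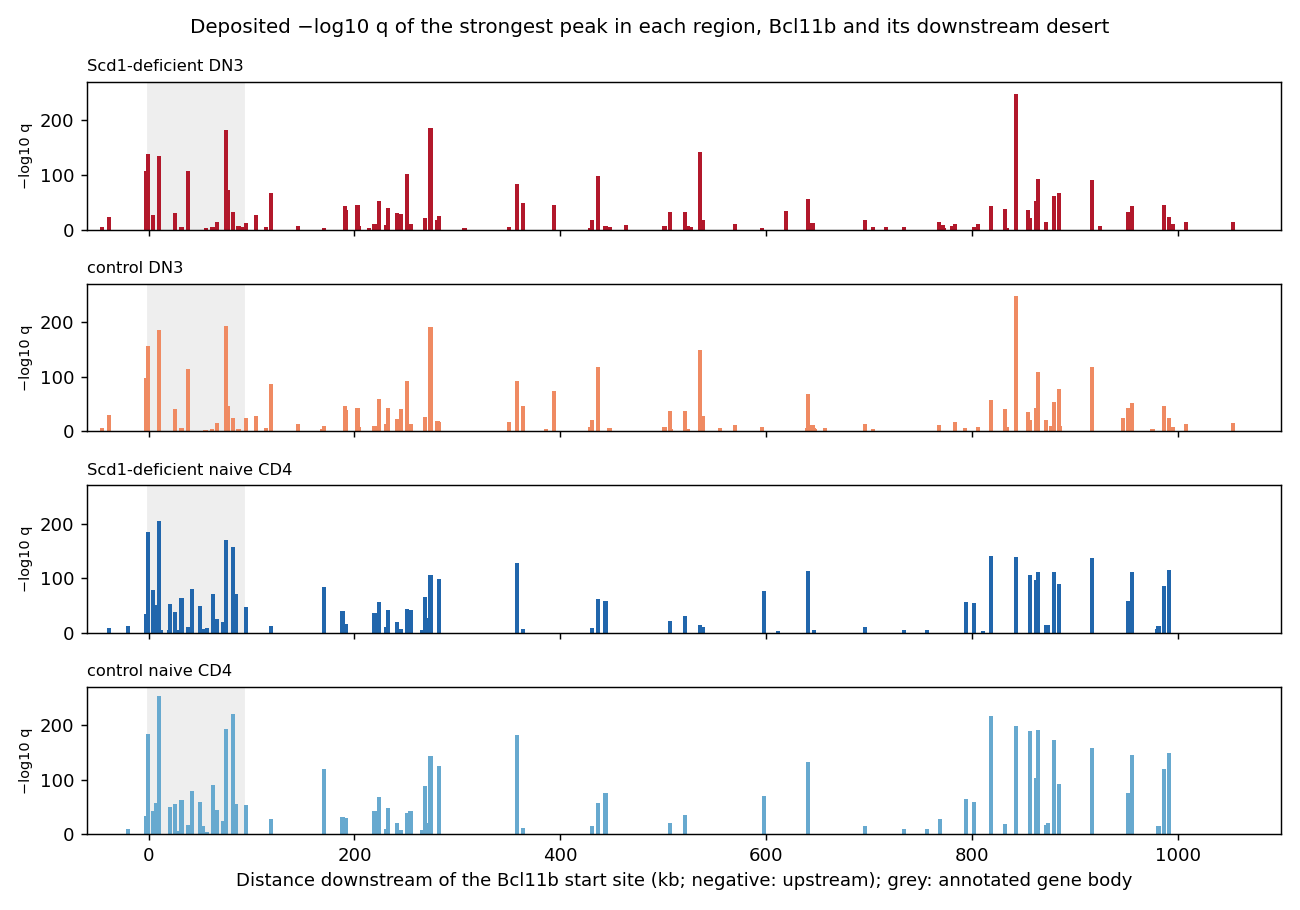
Deposited −log10 q (vertical axis) of the strongest peak in each region against distance from the Bcl11b start site in kb (horizontal axis), in Scd1-deficient DN3, control DN3, Scd1-deficient naive CD4 and control naive CD4 cells, 1 library each; grey marks the gene body. The tallest DN3 bars, 249 and 247, stand 843.1 kb downstream, and the gene body holds more bars in the naive lists than in the DN3 lists.

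Over the whole window, 46 of 136 regions were called in all 4 lists (33.8%, Wilson 95% interval 26.4 to 42.1), against 41.5% of all regions of the genome. Regions called in both DN3 lists and neither naive list numbered 29, or 21.3% (15.3 to 28.9), against 28.3% of all regions. Regions called in both naive lists and neither DN3 list numbered 19, or 14.0% (9.13 to 20.8), against 5.11% of all regions. The intervals cover counting error only, and neighbouring regions are not independent of each other. The gene and the desert differed in this balance. The desert had 24 DN3-only and 8 naive-only regions of 104, while the gene had 4 and 10 of 28.

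The balance of the desert differed with how the lists were cut, and the cause was not tested. With each list kept to its 46576 strongest peaks, the window had 5 DN3-only regions of 83 (6.02%) and 27 naive-only ones (32.5%), against 16.1% and 14.8% of all regions of the genome. The desert then had 4 DN3-only and 15 naive-only regions of 60, and the gene 1 and 11 of 20. Among peaks of at least 500 bp the window had 8 DN3-only and 21 naive-only regions of 87, against 23.5% and 7.28% of all regions. The desert had 7 and 8 of these and the gene 1 and 12. With peaks of a −log10 q of at least 5 the window had 20 DN3-only and 17 naive-only regions of 119, against 28.8% and 5.5% of all regions. The desert then had 19 and 8 of 91 and the gene 1 and 8 of 24. The larger number of naive-only regions in the gene was thus present under each of these settings, while the larger number of DN3-only regions in the desert was present with the last setting and not with the other two.

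The gene body was open over more of its length in naive cells. Called peaks touching it covered 10.3 and 9.4 kb in Scd1-deficient and control DN3 cells, against 18.7 and 21.9 kb in Scd1-deficient and control naive cells. These lengths came from 16 and 14 peaks in Scd1-deficient and control DN3 cells, and from 25 and 19 in Scd1-deficient and control naive cells. The DN3 over naive ratio of the length was 0.551 in the Scd1-deficient pair and 0.429 in the control pair, against 1.37 and 1.33 over the whole lists. In the desert it was 1.14 and 1.05. Both genotypes gave the same order, with DN3 below naive in the gene and above it in the desert. The ratio in the desert was nevertheless below that of the whole lists in both genotypes.

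The local background in the gene was also raised, which lowers the folds there. At the gene's peaks its median was 24.8 and 28.5 fragments in Scd1-deficient and control DN3 cells, or 5.55 and 6.05 times the lowest background of the list. In Scd1-deficient and control naive cells it was 47.7 and 74.7 fragments, or 13.1 and 14.6 times the lowest. In the desert it was 1.52 and 1.69 times the lowest in Scd1-deficient and control DN3 cells and 2.59 and 3.02 times in Scd1-deficient and control naive cells. At these median backgrounds a summit in the gene therefore had a smaller fold than a summit of the same pileup in the desert. Single regions could differ from this.

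**Figure D2:**
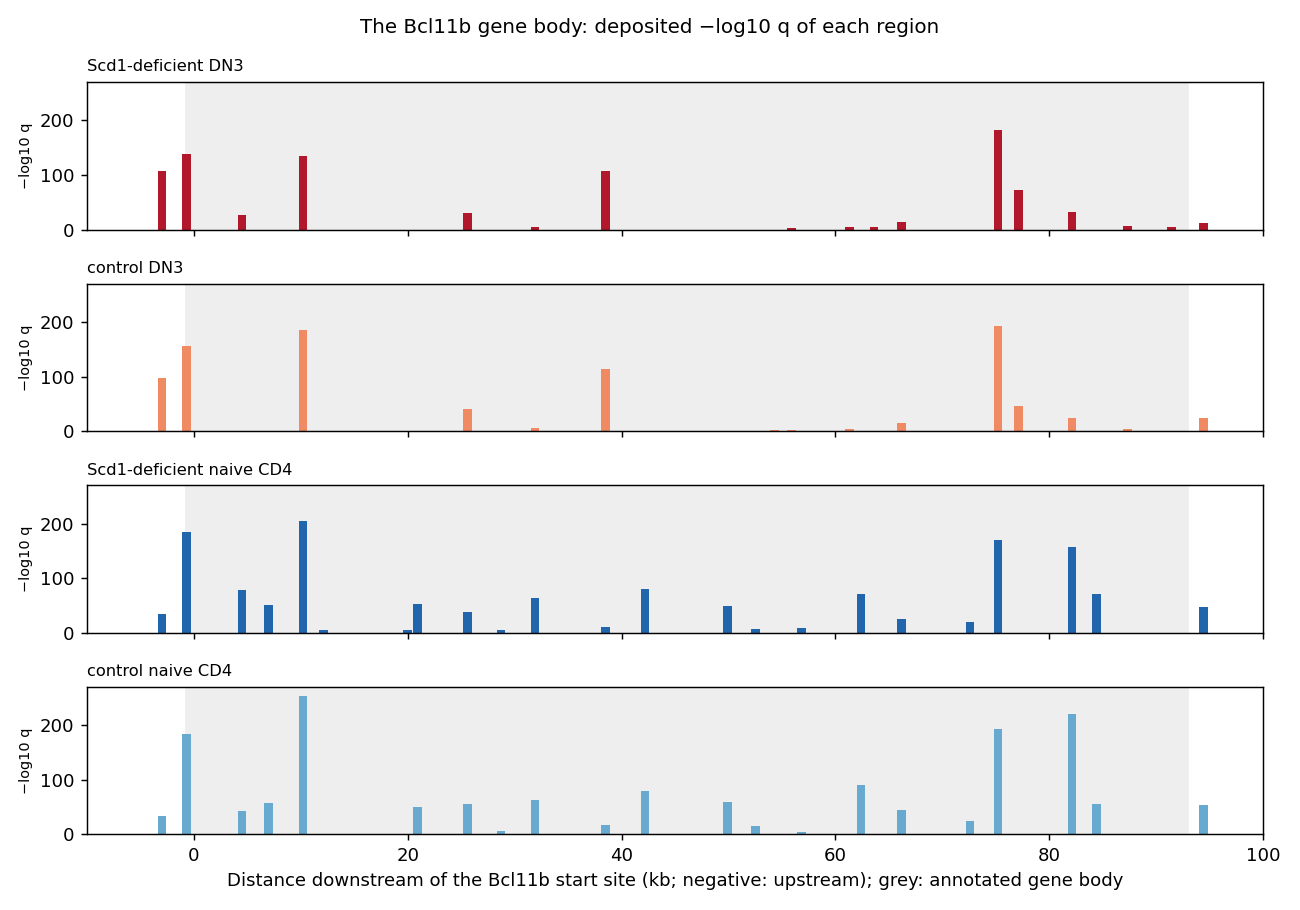
Deposited −log10 q (vertical axis) of each region of the Bcl11b gene against distance from the start site in kb (horizontal axis), in Scd1-deficient DN3, control DN3, Scd1-deficient naive CD4 and control naive CD4 cells, 1 library each; grey marks the gene body. The regions near 10.2 and 75.2 kb stand in all 4 lists, and those near 42.2, 49.9 and 62.4 kb in the naive lists alone.

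A pair of regions inside the gene was strong in every list. The region 10.2 kb downstream of the start site (107992686 to 107993892) had a −log10 q of 135 and 185 in Scd1-deficient and control DN3 cells, and of 205 and 253 in Scd1-deficient and control naive cells. The last value was the highest of the window in that list. The region 75.2 kb downstream (107927748 to 107928828) had 183 and 193 in Scd1-deficient and control DN3 cells, and 170 and 193 in Scd1-deficient and control naive cells. Its summit pileup was 421, 429, 375 and 500 fragments in Scd1-deficient DN3, control DN3, Scd1-deficient naive and control naive cells. The DN3 and naive values of −log10 q overlapped at 75.2 kb and not at 10.2 kb. The fold at 10.2 kb ran the other way to its −log10 q. It was 9.03 and 9.88 in Scd1-deficient and control DN3 cells, against 7.19 and 6.26 in Scd1-deficient and control naive cells. Its DN3 over naive ratio was 1.45. A region 82.1 kb downstream (107920013 to 107922076) had 31.5 and 23.7 in Scd1-deficient and control DN3 cells, against 158 and 221 in Scd1-deficient and control naive cells, so that its naive values stood well above.

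The 10 naive-only regions of the gene were spread along it, from 7.0 to 84.4 kb downstream of the start site. In control naive cells their −log10 q ranged from 3.699 to 89.95, with a median of 52.55, and 5 of the 10 reached 50. The strongest by that list lay 62.4 kb downstream (107940546 to 107941528), with 70.9 and 89.95 in Scd1-deficient and control naive cells. The next lay 42.2 kb downstream (107960620 to 107962183), with 79.2 in both. Others lay at 49.9 kb (48.98 and 59.9 in Scd1-deficient and control naive cells), at 7.0 kb (51.6 and 56.7) and at 84.4 kb (70.06 and 55.8). The remaining 5 lay at 20.9, 72.6, 52.5, 28.7 and 56.8 kb, with 49.3, 24.2, 15.8, 6.8 and 3.699 in control naive cells.

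DN3-only calls in the gene were fewer and mostly weak. In control DN3 cells 1 of the 4 had a −log10 q of at least 10. That region lay 77.1 kb downstream (107926141 to 107926877), with 71.9 and 46.6 in Scd1-deficient and control DN3 cells, beside the strong region at 75.2 kb. A region called in all 4 lists 38.5 kb downstream (107962904 to 107965295) had the largest DN3 over naive ratio of the fold in the window, 2.99. There the fold was 6.64 and 6.96 in Scd1-deficient and control DN3 cells, against 2.33 and 2.35 in Scd1-deficient and control naive cells. It adjoins the naive-only region at 42.2 kb, and its summits differed, at 107964919 and 107964869 in Scd1-deficient and control DN3 cells and at 107964593 and 107964423 in Scd1-deficient and control naive cells.

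At the lower-coordinate end of the gene a region from 107908536 to 107910302 was called in all 4 lists. Its −log10 q was 12.1 and 24.4 in Scd1-deficient and control DN3 cells, against 47.9 and 53.7 in Scd1-deficient and control naive cells. When neighbouring peaks were stitched over gaps up to the default length of the super-enhancer tool ROSE, the whole gene was 1 stretch in naive cells. In Scd1-deficient naive cells it had 27 peaks over 97.9 kb and was number 24 of 22065 stretches of its list by covered length. In control naive cells it had 21 peaks over 98.0 kb and was number 21 of 21007. In DN3 cells longer gaps split the gene into several stretches, so none of their places is that of the whole gene. The stretch with the downstream part of the gene began in the desert and held 13 and 12 peaks in Scd1-deficient and control cells. It was number 1146 of 27995 and number 1316 of 27966. Those beginning at 107962918 and 107992725 in Scd1-deficient DN3 cells were number 4148 and 4033. Those beginning at 107962904 and 107992723 in control DN3 cells were number 4138 and 4605.

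The desert was occupied in blocks with quiet stretches between them. The densest 100 kb bins, counted from the lower-coordinate end of the gene, were 100 to 200 kb away and 700 to 800 kb away, each with 19 regions. In the nearer block 11 of 19 regions were called in all 4 lists, and in the farther block 8 of 19. The bin from 200 to 300 kb had 5 regions. The last bin, from 900 to 1000 kb, had 3, all DN3-only, and no naive peak.

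Covered length showed the same blocks in both cell types. In the nearer block it was 11.7 and 10.6 kb in Scd1-deficient and control DN3 cells, and 10.07 and 11.04 kb in Scd1-deficient and control naive cells. In the farther block it was 11.2 and 12.7 kb in Scd1-deficient and control DN3 cells, and 13.96 and 15.7 kb in Scd1-deficient and control naive cells. From 400 to 500 kb DN3 cells had the longer length, with 4.79 and 5.09 kb in Scd1-deficient and control DN3 cells against 1.54 and 1.36 kb in Scd1-deficient and control naive cells. The longest gap between peaks of the desert was 50.2 and 67.3 kb in Scd1-deficient and control DN3 cells, and 74.5 and 76.8 kb in Scd1-deficient and control naive cells.

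**Figure D3:**
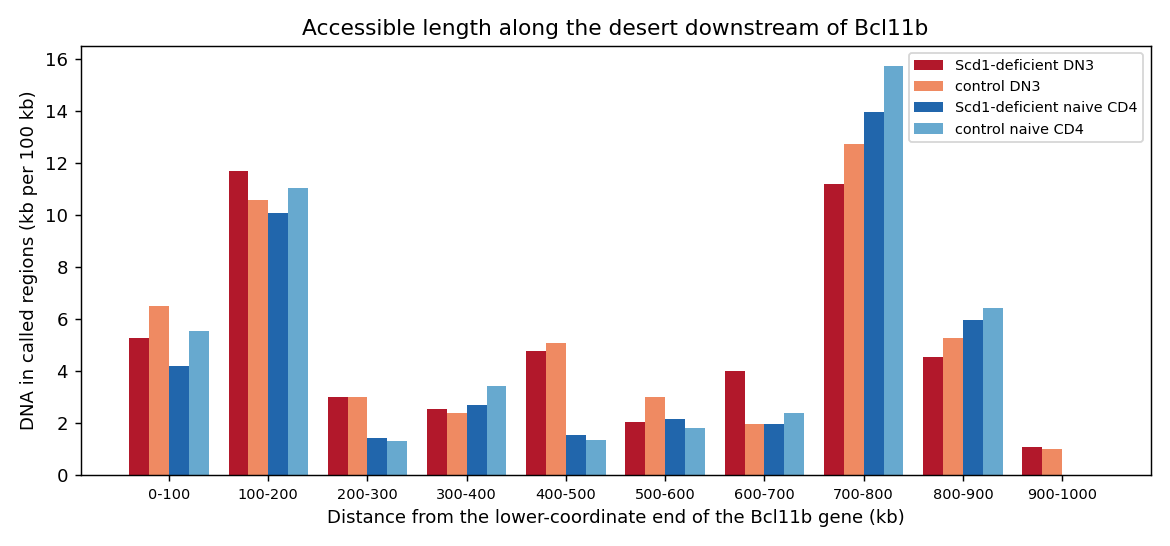
Length of DNA in called peaks (kb per 100 kb, vertical axis) in 10 bins by distance from the lower-coordinate end of the Bcl11b gene (horizontal axis), as bars for Scd1-deficient DN3, control DN3, Scd1-deficient naive CD4 and control naive CD4 cells, 1 library each. The bins at 100 to 200 and 700 to 800 kb stand above all others in each list.

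The strongest desert region of both DN3 lists lay in the farther block, 843.1 kb downstream of the start site (107158981 to 107160967). It had a −log10 q of 249 and 247 in Scd1-deficient and control DN3 cells, against 138 and 198 in Scd1-deficient and control naive cells. Its summit pileup was 401 and 408 fragments in Scd1-deficient and control DN3 cells, against 238 and 361 in Scd1-deficient and control naive cells. In the control DN3 list it was number 5103 of 76814 peaks by −log10 q. The fold was 10.1 and 9.76 in Scd1-deficient and control DN3 cells and 9.01 and 8.38 in Scd1-deficient and control naive cells, a DN3 over naive ratio of 1.18. The summits of the 4 lists lay between 107160270 and 107160320.

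Around it the farther block was mixed. The regions at 818.9 and 856.5 kb had the higher −log10 q in naive cells, while the one at 854.8 kb was DN3-only. The region 818.9 kb downstream (107182114 to 107185257) was the widest of the window, at 3144 bp. Its −log10 q was 42.5 and 56.4 in Scd1-deficient and control DN3 cells, against 141 and 218 in Scd1-deficient and control naive cells. Its fold did not show this order, at 7.13 and 7.7 in Scd1-deficient and control DN3 cells and 7.43 and 7.08 in Scd1-deficient and control naive cells, while its summit pileup did, with 84 and 106 fragments in Scd1-deficient and control DN3 cells against 280 and 452 in Scd1-deficient and control naive cells. The region 856.5 kb downstream (107146221 to 107147678) had 21.8 and 19.6 in Scd1-deficient and control DN3 cells, against 105 and 190 in Scd1-deficient and control naive cells. Its fold ratio of DN3 over naive was 0.409. The DN3 and naive values of −log10 q at 818.9 and 856.5 kb did not overlap, and they ran opposite to those at 843.1 kb.

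Other strong desert regions were common to the cell types. The region 273.9 kb downstream (107728783 to 107730023), inside the non-coding gene 4930465M20Rik, had a −log10 q of 186 and 190 in Scd1-deficient and control DN3 cells, and of 106 and 144 in Scd1-deficient and control naive cells. The region 917.1 kb downstream (107085791 to 107086890), inside the non-coding gene Gm16086, had 90.05 and 118 in Scd1-deficient and control DN3 cells, and 137 and 158 in Scd1-deficient and control naive cells. The region 436.7 kb downstream (107566247 to 107567064), in no annotated gene, had 97.7 and 118 in Scd1-deficient and control DN3 cells, and 61.05 and 57.8 in Scd1-deficient and control naive cells. The region 864.3 kb downstream (107138329 to 107139626) had 91.8 and 108 in Scd1-deficient and control DN3 cells, and 111 and 191 in Scd1-deficient and control naive cells. The region 357.8 kb downstream (107645257 to 107646145), inside the non-coding gene Gm33236, had 83.9 and 91.3 in Scd1-deficient and control DN3 cells and 128 and 183 in Scd1-deficient and control naive cells. Another such region, 641.2 kb downstream (107361643 to 107362762), had 55.2 and 67.6 in Scd1-deficient and control DN3 cells and 113 and 133 in Scd1-deficient and control naive cells. Of these 6 common regions, those at 273.9 and 436.7 kb had the higher −log10 q in DN3 cells and the others in naive cells. At 864.3 kb the fold did not follow the −log10 q, with a DN3 over naive ratio of 1.11. Those at 357.8 and 641.2 kb were picked from their values, so this balance holds for the 6 alone. Common regions at 250.7, 118.6 and 884.9 kb were left out. Their values in control DN3 cells, 92.27, 87.14 and 77.52, were above that at 641.2 kb. In control naive cells they had 39.03, 28.03 and 92.58. The regions at 250.7 and 118.6 kb thus had the higher values in DN3 cells, and that at 884.9 kb in naive cells.

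The region that came nearest to a strong DN3-only call lay 535.4 kb downstream (107467839 to 107468426). Its −log10 q was 143 and 148 in Scd1-deficient and control DN3 cells, against 14.9 in Scd1-deficient naive cells, and it was not called in control naive cells. The summit pileup was 183 and 192 fragments in Scd1-deficient and control DN3 cells, against 29 in Scd1-deficient naive cells.

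Of the 24 desert regions called in both DN3 lists and neither naive list, 13 had a −log10 q of at least 10 in control DN3 cells and 1 reached 50. The strongest lay 394.2 kb downstream (107608956 to 107609486), with 44.7 and 73.1 in Scd1-deficient and control DN3 cells. It was followed by regions at 202.9 kb (45.4 and 42.5 in Scd1-deficient and control DN3 cells), 854.8 kb (36.4 and 35.7), 104.3 kb (26.9 and 27.4) and 280.7 kb (16.8 and 17.9). The median −log10 q in the DN3-only desert regions was 9.42 and 10.5 in Scd1-deficient and control DN3 cells, against 40.05 and 42.9 in the desert regions called in all 4 lists. Over the whole genome, DN3-only regions had medians of 17.02 and 19.9 in Scd1-deficient and control DN3 cells.

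The 8 naive-only desert regions were led by regions at 598.4 kb (107404565 to 107405294) and 794.4 kb (107208788 to 107209686). The first had a −log10 q of 76.4 and 69.7 in Scd1-deficient and control naive cells, and the second had 55.96 and 63.8. Those at 188.3, 272.3 and 873.9 kb followed, with 31.3, 20.9 and 19.9 in control naive cells. The median over the 8 was 20.5 and 20.4 in Scd1-deficient and control naive cells, against 16.3 and 18.5 for naive-only regions of the whole genome.

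The edges of the window cut through no region. The outermost region inside the lower edge lay 960.8 kb from the gene, with a −log10 q of 13.6 and 14.6 in Scd1-deficient and control DN3 cells, and the first one beyond it at 1030.9 kb had 7.38 and 5.65. Inside the upper edge the last region lay 44.5 kb from the gene, with 4.71 and 6.31, and the first one beyond it at 65.3 kb had 11.09 and 9.11. None of these 4 regions was called in naive cells.

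For the 46 regions called in all 4 lists, the fold was compared as the DN3 mean over the naive mean, divided by the median of that ratio over all 37418 such regions. The median ratio in the window was 0.973, with a range of 0.322 to 2.99. At least 2-fold higher in DN3 were 3 of 46, against 3.58% of all regions, and at least 2-fold lower were 4, against 2.5%. Apart from the region at 38.5 kb, those higher in DN3 lay 190.7 kb (ratio 2.37) and 363.5 kb (2.16) downstream. The lowest ratio, 0.322, was that of the region 170.3 kb downstream (107832287 to 107833615). There the fold was 3.11 and 4.54 in Scd1-deficient and control DN3 cells, against 12.3 and 12.2 in Scd1-deficient and control naive cells. Its summits lay at 107832625 and 107832588 in Scd1-deficient and control DN3 cells. In Scd1-deficient and control naive cells they lay at 107833185 and 107833152. The ratio thus sets folds at different summits of 1 joined region side by side.

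Because the local background of the naive lists was raised here, the ratio was also taken with the summit pileup over the lowest background of each list, an alternative chosen after the data were seen. On that scale 8 regions were at least 2-fold higher and 9 at least 2-fold lower in DN3, and the median ratio was 0.833. The share of all regions past 2-fold on that scale was not counted, so these numbers are not shown to be particular to the window. Over all regions called in the 4 lists the ratio ranged from 0.0472 to 23.8 by the pileup, against 0.207 to 5.45 by the deposited fold. In the 8 gene regions called in all 4 lists the median was 1.03 by the deposited fold and 0.622 by the pileup. The region 31.9 kb downstream had a ratio of 0.599 by the fold and 0.199 by the pileup, with 38 and 37 fragments at its summit in Scd1-deficient and control DN3 cells, against 194 and 244 in Scd1-deficient and control naive cells. The region 118.6 kb downstream, outside the gene, had 1.25 by the fold and 4.46 by the pileup, with 125 and 151 fragments in Scd1-deficient and control DN3 cells, against 26 and 48 in Scd1-deficient and control naive cells.

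**Figure D4:**
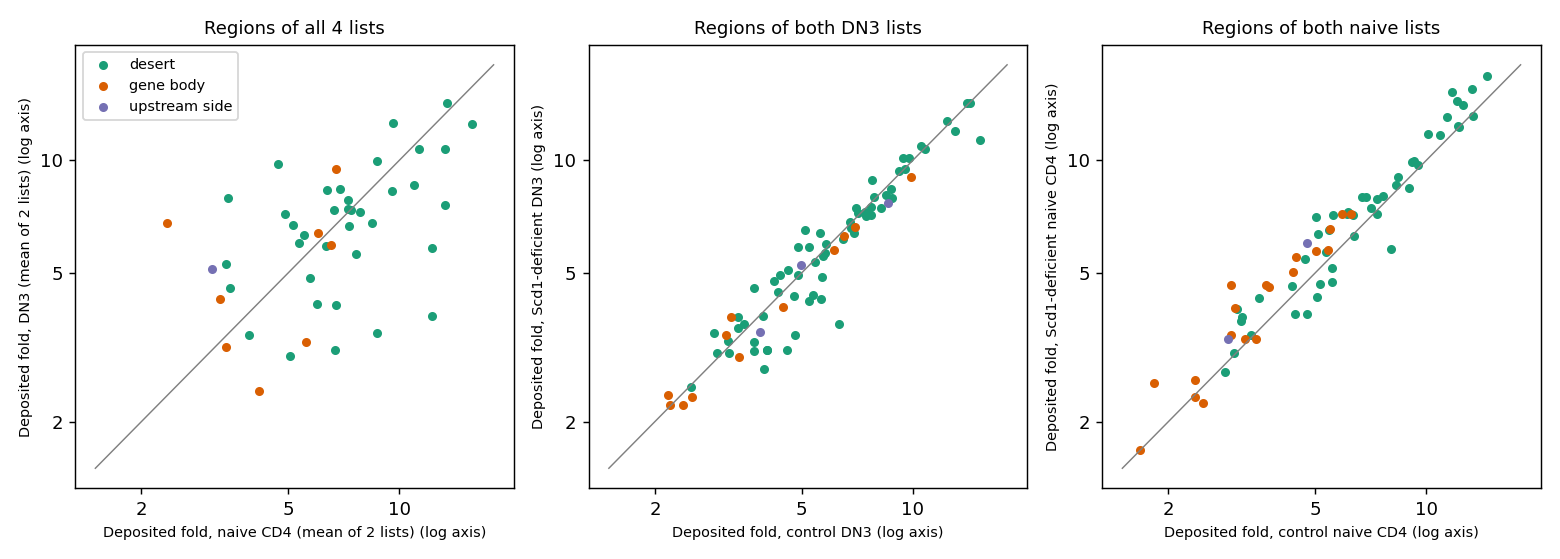
Deposited fold (both axes, log scale) of regions of the window, 1 point per region: DN3 against naive CD4 for the 46 regions of all 4 lists (left), Scd1-deficient against control DN3 for 79 regions (middle) and Scd1-deficient against control naive CD4 for 69 regions (right); colours mark the desert, gene body and upstream side, and the line marks equal folds. The points scatter widely between cell types and lie close to the line between genotypes. The plotted DN3 over naive ratios, not divided by the median, ran from 0.312 to 2.9.

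Most peaks of the window had a counterpart in the other genotype. Of the Scd1-deficient DN3 peaks in the window 16 of 98 had no counterpart in control DN3 cells (16.3%, 10.3 to 24.9), against 9.48% of the whole list. In the other direction it was 15 of 96 (15.6%, 9.7 to 24.2), against 10.4%. The shares in DN3 cells were above those of the lists, and for the control list the background lay inside the interval. The peaks without a counterpart had a median −log10 q of 5.18 in Scd1-deficient and 5.5 in control DN3 cells, against 23.03 and 24.6 for those with one. In Scd1-deficient naive cells 9 of 83 peaks had no counterpart in controls (10.8%, 5.81 to 19.3), against 12.4% of the list. In control naive cells it was 3 of 72 (4.17%, 1.43 to 11.5), against 5.77%. With lists of equal length the DN3 counts were 5 of 46 in the Scd1-deficient and 3 of 44 in the control list, and the naive counts were 4 of 74 and 7 of 72, so that the order of the naive genotypes turned. It turned also among peaks of at least 500 bp, with 2 of 63 in the Scd1-deficient and 6 of 65 in the control naive list. The shares over the whole lists under these cuts were not counted, so the turn is not shown to be particular to the window.

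The strongest region called in Scd1-deficient DN3 cells and not in control DN3 cells was a 239 bp region 619.1 kb downstream (107384131 to 107384369), with a −log10 q of 33.7. The next was 4.5 kb downstream of the start site (107998718 to 107999257), with 26.1 in Scd1-deficient DN3 cells. It was also called in both naive lists, with 77.9 and 43.2 in Scd1-deficient and control naive cells. Regions at 463.8 and 771.6 kb followed with 8.09 each. Of those called in control DN3 cells and not in Scd1-deficient DN3 cells, the strongest lay at 946.7 kb (23.6), 885.7 kb (8.99) and 877.2 kb (8.71). In naive cells the strongest regions called in the Scd1-deficient list and not in the control list were those at 535.4 kb (14.9), 538.5 kb (10.6) and 38.4 kb before the start site (8.15). Each of these 3 was called in both DN3 lists. The 3 called in the control naive list and not in the Scd1-deficient one lay at 769.2 kb (28.03), 832.3 kb (18.7) and 221.1 kb (13.7). The one at 832.3 kb was also called in both DN3 lists, and the other two in no other list.

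The folds of shared regions were compared between the genotypes too. In the 79 regions of both DN3 lists the Scd1-deficient over control ratio, divided by its median over all shared regions, had a median of 0.986 and a range of 0.584 to 1.29. At least 1.5-fold higher were 0 of 79, against 0.712% of all shared regions, and at least 1.5-fold lower was 1, against 1.54%. That region lay 350.1 kb downstream, with a fold of 3.65 in Scd1-deficient and 6.29 in control DN3 cells. In the 69 regions of both naive lists the median was 1.02 and the range 0.664 to 1.44. At least 1.5-fold higher were 0, against 2.65%, and at least 1.5-fold lower was 1, against 1.15%. That was the region at 118.6 kb, with a fold of 5.8 in Scd1-deficient and 8.01 in control naive cells. The direction turned with the scaling: without division by the median 1 region was higher and 0 were lower, and with the folds of all peaks in a region summed 3 were higher and 1 was lower. With 1 library per genotype, no spread between replicates is known against which to read these ratios.

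Each cell type comparison was also made within a genotype. Of the window's Scd1-deficient DN3 peaks 43 of 98 (43.9%) had no Scd1-deficient naive counterpart, against 43.3% of the list, and of the control DN3 peaks 47 of 96 (49.0%) had no control naive counterpart, against 47.2%. In the other direction 29 of 83 Scd1-deficient naive peaks (34.9%, 25.6 to 45.7) had no Scd1-deficient DN3 counterpart, against 16% of the list. Of the control naive peaks 25 of 72 (34.7%, 24.8 to 46.2) had no control DN3 counterpart, against 15%. The share of naive peaks without a DN3 counterpart was thus above that of the whole list in each genotype.

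Summit positions were also compared. In regions of the window called in all 4 lists the median distance between summits was 21.0 bp between Scd1-deficient and control DN3 cells and 25.5 bp between Scd1-deficient and control naive cells. Between DN3 and naive cells it was 52.0 bp in the Scd1-deficient pair and 44.5 bp in the control pair. The same medians over all such regions of the genome were 9.0 bp between the DN3 genotypes, 16 bp between the naive genotypes, 27.0 bp in the Scd1-deficient pair and 28.0 bp in the control pair. The distances in the window were larger than these in each comparison. These regions of the window were also weaker, with a median −log10 q of 41.3 and 42.9 in Scd1-deficient and control DN3 cells, against 70.25 and 76.2 over the genome. In Scd1-deficient and control naive cells it was 59.5 and 65.3, against 67.7 and 76.6. Their median width was 1221 bp, against 1136 bp. Whether strength or width had a part in the distances was not tested.

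Among gene deserts the stretch after Bcl11b was one of the most densely occupied. Between protein-coding genes of the RefSeq table there were 655 gaps of at least 500 kb. The gap after Bcl11b ends at Gm52008, a predicted gene from 107111081 to 107112136, and is 798.3 kb long. It held 91 regions, the third highest number together with the gap beside Runx1, against a median of 2.0. At 11.4 regions per 100 kb it was number 2 of 655, after the Runx1 gap with 12.01.

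Most of its regions were not DN3-only. Of the 91 regions 21 were DN3-only (23.1%) and 7 naive-only, against 36.2% DN3-only and 8.11% naive-only over the 5029 regions of all deserts. By number of DN3-only regions it was number 14 of 655. In the Runx1 gap 41 of 91 regions were DN3-only (45.1%). When predicted genes named Gm and a number were left out, an alternative chosen after the data were seen, the desert ran for 1832.1 kb to Vrk1, a nuclear kinase gene. It then held 141 regions, the highest number of 680 deserts, of which 35 were DN3-only (24.8%). At 7.7 regions per 100 kb this longer desert was number 10 of 680.

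**Figure D5:**
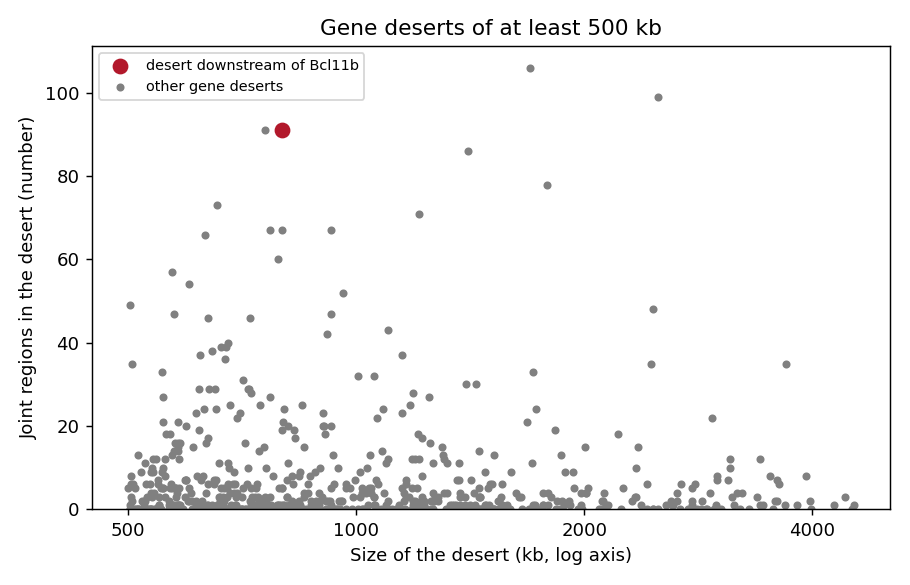
Number of joint regions of the 4 lists (vertical axis) against size in kb (horizontal axis, log scale) for the 655 gaps of at least 500 kb between protein-coding genes, 1 point per gap. The red point, the desert downstream of Bcl11b, has 91 regions in 798.3 kb, against a median of 2.0 regions.

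Within the gene body and 10 kb on either side, Bcl11b had 18 and 16 regions in Scd1-deficient and control DN3 cells, and 27 and 21 in Scd1-deficient and control naive cells. The genes nearest to it over the number and covered length of regions in the 4 lists, as a Euclidean distance over 8 log2 values, were Ext1 (0.331), St6gal1 (0.357), Lef1 (0.405), Cblb (0.415) and Mrtfa (0.49). Ext1 makes heparan sulfate, St6gal1 adds sialic acid, Lef1 is a T cell transcription factor, Cblb a ubiquitin ligase that restrains T cell activation and Mrtfa a coactivator of serum response factor. The 8 values that chose these genes include the cell types, so the order is a description and their balance of DN3-only and naive-only regions follows from the choice.

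The 13 regulators and partners of Bcl11b in T cells all had a region at a gene end in each list. Among all protein-coding genes 57% to 66.7% had one, by list. Of the 240 regions of the 13 genes 36 were DN3-only (15.0%) and 30 naive-only, against 28.3% and 5.11% of all regions of the genome. Within the list 7 genes had more DN3-only regions and 5 had more naive-only ones. Runx1, a partner of the T cell programme, had 8 DN3-only and 2 naive-only regions of 41, Myb 7 and 0 of 12, and Notch1, the receptor that drives T cell commitment, 6 and 1 of 15. On the other side stood Lef1 with 0 and 11 of 30, Ets1 with 3 and 6 of 30 and Satb1, a chromatin organiser, with 1 and 5 of 19. Bcl11b stood with these by its 4 and 10 of 30.

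Of 10 genes that Bcl11b holds down or that are shut during commitment, 9 had a region at a gene end in each DN3 list, and 7 in Scd1-deficient and 5 in control naive cells. Of all protein-coding genes 66.5% and 66.7% had one in Scd1-deficient and control DN3 cells. In Scd1-deficient and control naive cells it was 58.6% and 57%. Of the 74 regions of the 10 genes 30 were DN3-only (40.5%) and 3 naive-only (4.05%), against 28.3% and 5.11% of all regions of the genome. The share is not particular to these genes, since the B cell markers had 41.0% DN3-only regions and the CD8 and double-positive markers 40.0%. Zbtb16, which encodes the innate T cell factor PLZF, had 15 DN3-only and 0 naive-only regions of 22. Il2rb, a receptor chain for IL-2 and IL-15, was the only one of the 10 with more naive-only regions, with 2 and 3 of 11. Kit, the stem cell factor receptor, had 6 regions in each DN3 list, against 3 in Scd1-deficient and 0 in control naive cells. Bcl11a, the paralog of Bcl11b known from B cells and progenitors, had 3 DN3-only and 0 naive-only regions of 6.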

How the data were processed

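Chromatin accessibility was measured in 4 libraries, 1 per group. Per the submitters' processing notes, reads were trimmed with Trimmomatic, aligned with BWA to mm10 and peaks called with MACS2. For versions, peak settings, duplicate removal and any Tn5 shift, the answer is not given in the sources used here. Deposited lists hold, for each peak, a score, a fold (ratio of summit pileup to local background), a −log10 p and a −log10 q, all values of the authors' peak caller within 1 library. The deposited fold and −log10 p gave a whole number of fragments at the summit, within 0.05, for 100.0% of peaks of each list. This rests on the Poisson form of the caller, and intervals cover counting error only.

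Peaks sharing 1 bp, or touching, were joined. Gene positions and the promoter came from RefSeq (GRCm38.p6). Strand was known from the promoter window only. The DN3 over naive and Scd1-deficient over control fold ratios were divided by their medians over all shared regions (0.9705, 0.9937 in DN3 and 1.0912 in naive cells). Overlap and pileup steps were tested on simulated data. Python 3.11.15, numpy 2.4.6, pandas 2.3.3, scipy 1.17.1 and matplotlib 3.10.9 were used. Regions were named by rule: both gene ends, the strongest of each pattern and of the gene, naive-only regions of the gene, those of 1 genotype alone, the upstream side, the farthest and the widest. Those at 31.9, 77.1, 118.6, 170.3, 190.7, 250.7, 350.1, 357.8, 363.5, 641.2, 771.6, 856.5 and 884.9 kb were picked from their values. The members and gene lists were chosen with earlier results of these data known.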

Additional observations from a re-analysis of the deposited data

How the results depend on the processing

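With 1 library per group no library could be left out. No paired analysis was possible because the results are counts of regions that come from no test. DN3 and naive lists were set side by side within each genotype. Of 48 alternative values 28 stayed within 1.5 times the reported count and 20 did not. This tally compares counts and not shares, while the totals differ between settings. The naive-only count at equal list length, 27 of 83 (32.5%), stayed within it, against 19 of 136 (14.0%). The DN3-only count within 500 kb downstream, 18 of 83 (21.7%), did not, against 29 of 136 (21.3%). Main counts were 29 DN3-only and 19 naive-only regions, 16 and 15 DN3 peaks of the Scd1-deficient and control list alone, and 9 and 3 naive peaks likewise. With lists of equal length, 5 regions were DN3-only, 5 and 3 DN3 peaks were in the Scd1-deficient and control list alone, and 4 and 7 naive peaks, which turns the order of the naive genotypes. With peaks of at least 500 bp these were 8, then 9 and 9, then 2 and 6. Within 500 kb downstream they were 18, then 8 and 6, then 5 and 1, over a shorter window. With a −log10 q of at least 5 the control naive count alone was 5. For peaks of 1 genotype alone, shares over the whole genome were counted for the full lists only. Overlap of at least 0.5 of the narrower region and joining of peaks up to 200 bp apart moved no count by over 1.5 times. Fold ratios past the limit numbered 7 of 46 between cell types, 1 of 79 between DN3 and 1 of 69 between naive genotypes. With summed folds the naive count was 4 (3 higher, 1 lower), and without division by the median it was 1, in the other direction. With the summit pileup over the lowest background they were 17, 2 and 0, and the shares of all regions on that scale were not counted. The cause of these shifts was not tested. Depth is known only through the background, so weak regions called in 1 list may lie under the limit of another.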
